A study of Mus musculus with 10 samples.

Results

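The mitochondrial ribosomal protein genes were followed in the hearts of mice in which superoxide dismutase 2 had been knocked down only before birth. Members were all rows of the heart count table whose gene symbol begins with Mrpl or Mrps and a digit, a rule that uses names and no measured value, and it found 78 of the 24537 genes in the table. The table came from RNA sequencing of 10 hearts taken at an age of 6 weeks. Both genotypes were offspring of C57BL/6J females and carried 1 copy of a transactivator under the ubiquitous Rosa26 promoter, and both were exposed to doxycycline through the dam's chow until birth and to none afterwards. The 5 control mice lacked the hairpin transgene (Rosa26-rtTA2+/-;TRE-SOD2-shRNA-/-), and the 5 iSOD2 mice carried 1 copy of it in the Col1a1 locus (Rosa26-rtTA2+/-;TRE-SOD2-shRNA+/-), so that doxycycline lowered SOD2, which clears superoxide in the mitochondrial matrix, in utero. Control mice were numbered 1, 2, 3, 4 and 6 and iSOD2 mice 5, 7, 8, 9 and 10. Mice 1, 2, 7 and 8 came from litter A and the others from litter B, and mice 4, 5, 6, 8 and 10 were female.

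The mitochondrial ribosome translates the few proteins that mitochondrial DNA encodes, all of them core subunits of the respiratory chain and of ATP synthase. Its RNAs come from mitochondrial DNA, whereas all of its proteins are encoded in the nucleus, made in the cytosol and imported. A part of these proteins descends from bacterial ribosomal proteins and the rest were gained in the mitochondrial lineage, and the heart, whose cardiomyocytes are packed with mitochondria, is one of the tissues in which inherited defects of the particle cause disease, often as cardiomyopathy. Tetracyclines such as doxycycline bind bacterial-type ribosomes, those of mitochondria included, and controls had the same exposure.

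Libraries held 16448090.5 to 24263085.5 counts over genes, and every member had at least 168 normalized counts in every library (counts divided by the library's size factor). Sod2, the targeted gene, stood at 10573 ± 588 normalized counts in control hearts and at 10781 ± 449 in iSOD2 hearts (SD, n = 5 per genotype, log2 fold change 0.03, SE 0.05, exact permutation p = 0.532). As the hairpin had not been induced since birth, its level at this age does not check the genotype labels. All 7 cardiomyocyte markers were present in every library, 4 of them with a positive log2 fold change (median 0.009), and their sum was 1713939 ± 121777 normalized counts among controls against 1644908 ± 126528 among iSOD2 hearts. Of the markers of other tissues, the 8 hepatocyte genes had positive log2 fold changes without passing the test, with summed levels of 132 to 11327 normalized counts in control hearts and 5595 to 22547 in iSOD2 hearts. The 4 atrial genes were also all positive (median log2 fold change 3.10) and none was called. DESeq2 gave a p for only 1 of the 4, which was under 0.05 unadjusted. By edgeR all 4 had an unadjusted p under 0.05, with a lowest adjusted p of 0.194. The atrial genes summed to 517 to 2123 in control hearts and 634 to 7655 in iSOD2 hearts, with iSOD2 8 the highest and 1 gene at 0 in at least 1 library. Of the erythroid genes 0 of 4 were positive (median -0.38) and of the macrophage genes 1 of 4 (-0.12). Of the fibroblast genes 3 of 4 were positive (0.12), of the endothelial 2 of 4 (-0.02) and of the brown adipocyte 1 of 3 (-0.05). None of these was called. The ranges of the hepatocyte and atrial sums overlapped between genotypes, as did those of the other marker lists, and the part of any of these in the members' levels was not tested.

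Whether the mitochondrial ribosome genes differed between genotypes at 6 weeks of age was asked with the Wald test of DESeq2. A gene was called at a Benjamini-Hochberg adjusted p of at most 0.05 and an absolute log2 fold change above 0.25. Of the 78 members, 73 (93.6%) had a positive log2 fold change in iSOD2 hearts, against 49.6% of all genes fitted, and the median was 0.13 against -0.002 over all genes. The test called 5 members, all of them higher in iSOD2, namely Mrps33, Mrpl33, Mrps12, Mrpl12 and Mrpl54, and none lower. Over all genes with an adjusted p, 2.96% were called in either direction and 1.27% were called higher. An unadjusted p under 0.05 was reached by 33 members, 42.3% of them, against 13.2% of all genes. In 9 members the lowest iSOD2 mouse stood above the highest control, in none the reverse, and that separation was seen in 2.09% of all genes. Among 1964 genes with at most 1500 bp of exon and a mean of at least 50 normalized counts, it was seen in 197. A heart with more cardiomyocyte RNA and one with more of these transcripts in each cell cannot be told apart in bulk tissue.

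These calls depended on the test, on the treatment of exon length and on single mice. The quasi-likelihood test of edgeR called 0 members and 0 of all genes. It gave 39 members an unadjusted p under 0.05, against 2714 of 17721 genes, and the lowest adjusted p of a member was 0.0875 (Mrps33). When the trend of each library with exon length was taken out, 0 members were called by DESeq2 against 129 of all genes, 8 members had an unadjusted p under 0.05 against 1579 genes, 53 (67.9%) were positive against 47.4% of all genes, and the median was 0.02. Leaving out 1 mouse moved the count of members and that of all genes. Without control 2 or control 3 the only call was Mrps33 (166 and 185 of all genes called, against 281 with all mice). Without iSOD2 5 there were 2 calls (230 of all genes), without control 1, control 6, iSOD2 7, iSOD2 8 or iSOD2 10 there were 3 (186 to 330 of all genes). Without iSOD2 9 there were 7 (319 of all genes) and without control 4 there were 8 (488 of all genes). Below, the 5 calls of DESeq2 are given with the length-adjusted value beside each.

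**Figure D1:**
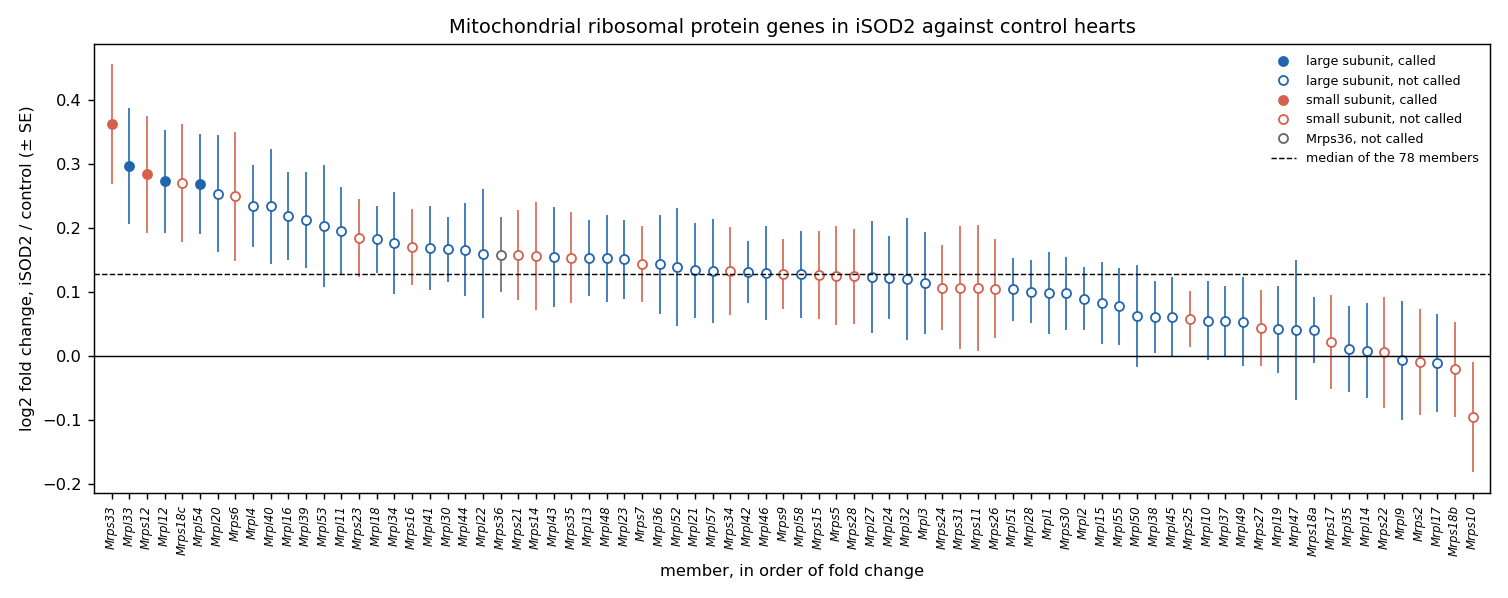
Log2 fold change of each of the 78 members between 5 iSOD2 and 5 control hearts, with the DESeq2 standard error as a bar, in order of size. Filled points are the 5 called members, colours mark the subunit, and the dashed line is the members' median of 0.13; 73 of 78 points lie above 0 and the lowest is Mrps10 at -0.09.

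Mrps33 had the largest difference. It encodes a small-subunit protein gained in the mitochondrial lineage and lies on chromosome 6, 39801807 to 39810936, minus strand (NM_010270, mm10). Its normalized counts were 484, 461, 509, 638 and 485 in control mice 1, 2, 3, 4 and 6 and 730, 613, 684, 629 and 654 in iSOD2 hearts 5, 7, 8, 9 and 10. Control 4 was the only control within the iSOD2 range. The log2 fold change was 0.36 (SE 0.09, adjusted p = 0.00622, exact permutation p = 0.0238) and 0.24 with the length trend removed (adjusted p = 0.117). Mrps33 was called whichever mouse was left out.

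Mrpl33, the counterpart of bacterial L33 in the large subunit (NM_025796, chromosome 5, 31613951 to 31622644, plus strand), had normalized counts of 398, 340, 391, 480 and 414 in controls and 535, 519, 481, 458 and 496 in iSOD2 hearts, in the same order of mice. The genotypes again overlapped through control 4 alone. The log2 fold change was 0.30 (SE 0.09, adjusted p = 0.0259, exact permutation p = 0.0159) and 0.18 after the length trend was removed (adjusted p = 0.388).

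Mrps12 encodes the counterpart of bacterial S12, the decoding-centre protein at which streptomycin resistance arises in bacteria (NM_011885, chromosome 7, 28739641 to 28741781, minus strand). Control hearts had 365, 325, 296, 363 and 348 normalized counts and iSOD2 mice 456, 410, 453, 368 and 383, so that the genotypes did not overlap, although iSOD2 9 exceeded control 1 by a margin far smaller than the spread within either group. The log2 fold change was 0.28 (SE 0.09, adjusted p = 0.0378, exact permutation p = 0.00794, the smallest that 5 mice against 5 can give) and 0.15 after length adjustment (adjusted p = 0.577). Any gene whose genotypes do not overlap has this permutation p, so it repeats the lack of overlap.

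Mrpl12 is the stalk protein that recruits translation factors to the ribosome, and it has also been described as a partner of the mitochondrial RNA polymerase (NM_027204, chromosome 11, 120484669 to 120488754, plus strand). It had 1521, 1685, 1778, 2131 and 1785 normalized counts in control hearts and 2211, 2183, 2066, 2033 and 2260 in iSOD2 hearts. Control 4 was once more the one control inside the iSOD2 range, and the SD was 223 in controls and 97.1 in iSOD2 hearts. The log2 fold change was 0.27 (SE 0.08, adjusted p = 0.0202, exact permutation p = 0.0238) and 0.15 after length adjustment (adjusted p = 0.350).

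Mrpl54, a large-subunit protein without a bacterial counterpart (NM_025317, chromosome 10, 81264722 to 81266926, minus strand), had 526, 475, 410, 502 and 486 normalized counts in control hearts and 576, 584, 622, 587 and 528 in iSOD2 hearts. The genotypes did not overlap, with control 1 just below iSOD2 10. The log2 fold change was 0.27 (SE 0.08, adjusted p = 0.0178, exact permutation p = 0.00794) and 0.14 after length adjustment (adjusted p = 0.549).

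**Figure D2:**
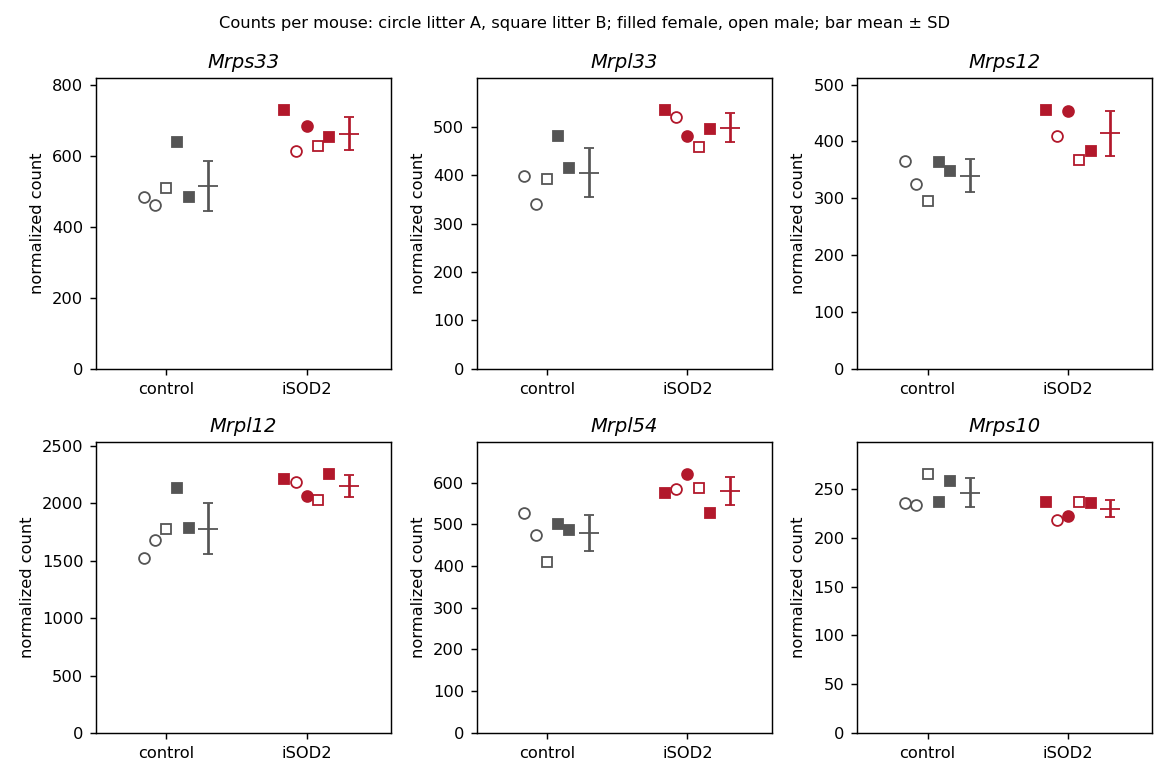
Normalized counts of the 5 called members and of Mrps10, the member with the lowest log2 fold change, in each mouse. Circles are litter A and squares litter B, filled symbols females and open symbols males, and the bar is the mean ± SD (n = 5); in Mrps33, Mrpl33 and Mrpl12 the control among the iSOD2 mice is control 4, and for Mrps10 the iSOD2 mean is 229.9 against 246 in controls.

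A further 5 members reached an adjusted p of at most 0.05 with a log2 fold change below the threshold of 0.25. They were Mrpl4 (0.23, adjusted p = 0.0102), Mrpl16 (0.22, 0.0292), Mrps23 (0.19, 0.0421), Mrpl18 (0.18, 0.0159) and Mrpl30 (0.17, 0.0257). Of these only Mrpl18 had genotypes that did not overlap. Mrps18c, with a log2 fold change of 0.27, missed the threshold (adjusted p = 0.0518), with 213 to 239 normalized counts in control hearts and 233 to 290 in iSOD2 hearts.

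The promoters of called members are shown because nuclear genes for mitochondrial proteins are known for shared binding letters near the start of transcription, among them those of the ETS family factor GABP (nuclear respiratory factor 2), of NRF1 and of YY1. Sequences come from RefSeq on GRCm38.p6 and run from 150 bases before the start to 25 after it, counted with the start base as 1. A RefSeq promoter was matched for 69 of the 78 members, and none was matched for Mrpl13, Mrpl15, Mrpl19, Mrpl38, Mrpl4, Mrpl54, Mrps28, Mrps34 or Mrps35. Capitals mark the ETS letters CCGGAAG on either strand. Mrps22 is added as a member with the same letters next to its start and a log2 fold change of 0.01.
Mrps33, chr6:39810912-39811086, minus strand: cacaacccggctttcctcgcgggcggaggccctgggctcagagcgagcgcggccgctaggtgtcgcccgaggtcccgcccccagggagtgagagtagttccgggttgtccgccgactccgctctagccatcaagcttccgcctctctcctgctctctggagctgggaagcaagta
Mrpl33, chr5:31613801-31613975, plus strand: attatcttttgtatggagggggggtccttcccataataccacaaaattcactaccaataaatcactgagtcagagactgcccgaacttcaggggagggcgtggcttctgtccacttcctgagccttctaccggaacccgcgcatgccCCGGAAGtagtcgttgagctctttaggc
Mrps12, chr7:28741797-28741971, minus strand: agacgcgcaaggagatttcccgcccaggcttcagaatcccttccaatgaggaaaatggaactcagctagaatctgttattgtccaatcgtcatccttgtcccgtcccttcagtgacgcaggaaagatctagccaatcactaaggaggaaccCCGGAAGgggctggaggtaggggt
Mrpl12, chr11:120484487-120484661, plus strand: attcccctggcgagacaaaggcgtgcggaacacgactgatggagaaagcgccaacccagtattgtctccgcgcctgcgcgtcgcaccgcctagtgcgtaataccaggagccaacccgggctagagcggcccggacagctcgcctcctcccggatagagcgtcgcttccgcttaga
Mrps22, chr9:98601655-98601829, minus strand: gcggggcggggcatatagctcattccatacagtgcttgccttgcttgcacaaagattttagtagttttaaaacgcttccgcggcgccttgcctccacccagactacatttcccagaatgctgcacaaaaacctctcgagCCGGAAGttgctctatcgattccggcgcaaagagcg

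The ETS letters begin at position -3 in Mrpl33, at 2 in Mrps12 and at -11 in Mrps22, while in Mrps33 they lie on the other strand at 39, beyond the stretch shown, and Mrpl12 has none. Over the longer window from 250 bases before to 50 after the start, CCGGAAG was found on either strand in 26 of 69 members (37.7%), against 12.0% of 17564 promoters of table genes and 18.6% of 9320 promoters of genes averaging 50 or more normalized counts. The YY1 letters AAGATGGC were found in 17.4% of members, 3.31% of all promoters and 4.87% of promoters of the expressed genes, and the NRF1 letters GCGCATGCG in 10.1%, 2.45% and 3.85%. The last 3 letters of the ETS motif are the first 3 of the YY1 motif, so the same bases can count for both, and GCGCATGCG can match both strands 1 base apart. CCAAT was about as frequent in members (39.1%) as in all promoters (38.7%), and TATAAA was found in 5.80% and 12.8%. Members with the ETS letters had a median log2 fold change of 0.15 and those without them 0.12, members with and without the YY1 letters 0.11 and 0.13, and the 7 with the NRF1 letters 0.06 against 0.13. Median exon lengths with and without the letters were 952.5 and 1118 bp (ETS), 1018 and 1047 bp (YY1), and 1592 and 1029 bp (NRF1). With the length trend removed, the medians were 0.04 and 0.009 (ETS), -0.02 and 0.03 (YY1), and -0.01 and 0.02 (NRF1). A match is a run of letters and no measured binding.

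Exon length moved with the genotype difference and with membership. Members had a median exon length of 1046 bp, and 70.5% of them were at most 1500 bp long against 16.2% of the 12151 genes averaging 50 or more normalized counts. Over those genes the rank correlation of log2 fold change with exon length was -0.47, and over the 78 members -0.43, given without a p because genes of the same libraries are not independent. Each library's own slope, the log2 deviation from the gene's mean per doubling of exon length, was 0.0320, 0.0527, 0.0437, 0.00629 and 0.0314 in control mice 1, 2, 3, 4 and 6. It was -0.0392, -0.0180, -0.0383, -0.0197 and -0.0510 in iSOD2 hearts 5, 7, 8, 9 and 10. Short transcripts were therefore relatively higher in every iSOD2 library, control 4 lay nearest to them, and genotype and slope cannot be told apart in these 10 libraries.

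Set against genes of like length, the members stood closer to the rest. Among 302 genes of 400 to 700 bp the median log2 fold change was 0.15 and among the 14 members of that length 0.17, and for 700 to 1000 bp both medians were 0.13. From 1000 to 1500 bp the medians were 0.13 for 23 members and 0.10 for 1121 genes, from 1500 to 3000 bp 0.10 for 17 members and 0.03 for 4117 genes, and from 3000 to 7000 bp 0.05 for 6 members and -0.05 for 5148 genes. Among 1964 genes of at most 1500 bp and a mean of at least 50, 81.3% had a positive log2 fold change. Of the 1334 of them with an adjusted p, 5.70% were called higher. Among the 55 members of that length 53 were positive and 5 were called. All iSOD2 mice stood above all controls in 197 of the 1964 genes and in 8 of the 55 members. The 23 longer members included 20 positive values and 0 calls, with 4 at an unadjusted p under 0.05. Mrpl11, a stalk-base protein with 2875 bp of exon, was the longest transcript with a log2 fold change of this size (0.20, adjusted p = 0.0644), and its value was 0.19 with the length trend removed (adjusted p = 0.139).

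**Figure D3:**
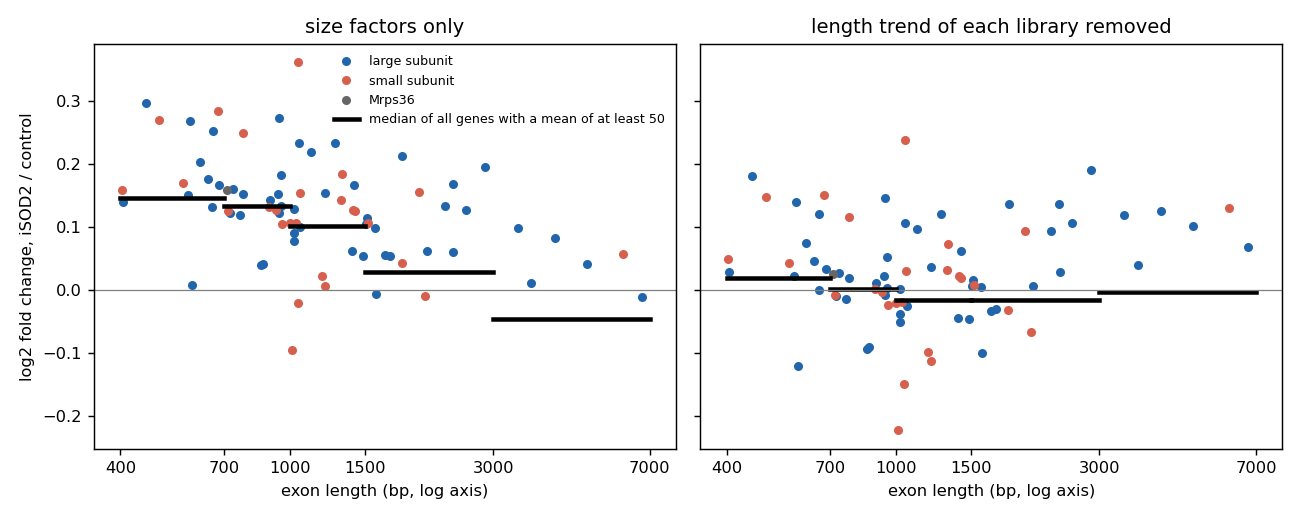
Log2 fold change of each member against exon length (log axis), with library size factors only on the left and with each library's length trend removed on the right. Black bars are medians of all genes averaging 50 or more normalized counts in 5 length classes; on the left they run from 0.15 for the shortest to -0.05 for the longest, on the right all lie between -0.02 and 0.02, and the members' median moves from 0.13 to 0.02.

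In each mouse the 78 members were also summed. The sum was 54873, 53921, 53364, 57244 and 53488 normalized counts in control mice 1, 2, 3, 4 and 6 and 61303, 58856, 58576, 58751 and 60865 in iSOD2 hearts 5, 7, 8, 9 and 10. The genotypes did not overlap, and control 4 was again the highest control. As a share of all counts the members made up 0.261% ± 0.0132 among control hearts against 0.290% ± 0.0122 among iSOD2 hearts (SD, n = 5 per genotype), with ranges of 0.244% to 0.281% and 0.275% to 0.305% that overlapped. Mice 5 and 10 had 68 and 67 members above the member's own mean over the 10 hearts, whereas controls 3 and 6 had 10 and 8, and control 4 had 42.

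**Figure D4:**
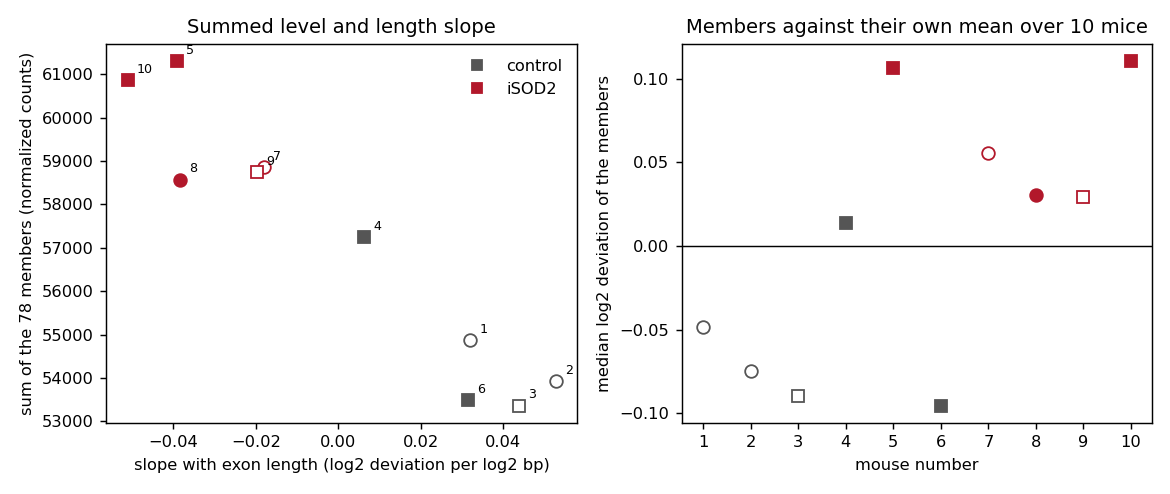
Left, the sum of the 78 members in each mouse against that library's slope with exon length, with mouse numbers beside the points; right, the median over members of the log2 deviation from the member's mean over 10 mice. Symbols are as in the plot of called members, grey for control and red for iSOD2; all 5 iSOD2 mice lie above the controls in summed level (58576 to 61303 against 53364 to 57244) and below them in slope.

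Members of both subunits had mostly positive values. The 51 large-subunit genes, among which Mrps30 and Mrps18a are counted because their proteins sit in the large subunit, had 49 positive values, 3 calls and a median of 0.13. The 26 small-subunit genes had 23 positive values, 2 calls and a median of 0.13. The summed level of the large subunit was 2.55 ± 0.0265 times that of the small subunit in controls and 2.56 ± 0.0137 times in iSOD2 hearts (SD, n = 5 each), a difference smaller than the spread within either group. Of the 46 genes with a bacterial homologue 42 were positive (median 0.13, 3 called), and of the 31 gained in the mitochondrial lineage 30 were positive (median 0.13, 2 called). Mrps36, whose product is now placed in the 2-oxoglutarate dehydrogenase complex and not in the ribosome, had 701 to 780 normalized counts in control hearts and 782 to 882 in iSOD2 hearts, without overlap (log2 fold change 0.16, adjusted p = 0.0810).

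Values varied among the proteins of the stalk and exit side. Beside Mrpl12 at 0.27 and Mrpl11 at 0.20, Mrpl10, the stalk base to which Mrpl12 binds, had 882 ± 32.6 normalized counts in control hearts and 916 ± 61.3 in iSOD2 hearts (SD, n = 5 per genotype, log2 fold change 0.06, SE 0.06, adjusted p = 0.664). Mrpl45, which anchors the ribosome to the inner membrane, was at 0.06 (SE 0.06, adjusted p = 0.631). The differences between these members were not tested. The 3 Mrps18 genes, paralogues of one another related to bacterial S18, whose products occupy different places in the particle, had log2 fold changes of 0.27 (Mrps18c), 0.04 (Mrps18a, adjusted p = 0.713) and -0.02 (Mrps18b, adjusted p = 0.912). In the counts above, Mrps18c was listed with a bacterial homologue, and Mrps18a and Mrps18b among those gained in the mitochondrial lineage.

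For some genes of the particle human variants cause cardiomyopathy or multisystem disease with heart involvement, and none of the 4 examined was called. Mrpl44 was at 0.17 (adjusted p = 0.155, exact permutation p = 0.0238), with 617, 655, 680, 693 and 658 normalized counts in control hearts and 843, 678, 709, 712 and 760 in iSOD2 hearts, and the genotypes overlapped. Mrps14 was at 0.16 (adjusted p = 0.283), Mrpl3 at 0.11 (adjusted p = 0.437) and Mrps22 at 0.01 (adjusted p = 0.980). Mrps30, a large-subunit protein in spite of its name, was at 0.10 (adjusted p = 0.329) and had genotypes that did not overlap, with 586, 563, 612, 604 and 604 normalized counts in control hearts and 624, 631, 638, 654 and 632 in iSOD2 hearts (exact permutation p = 0.00794, the value of any gene without overlap).

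No member was called lower. The 5 members with negative values were Mrps10 (-0.09, SE 0.09, adjusted p = 0.577), Mrps18b, Mrpl17, Mrps2 and Mrpl9, of which the last 4 lay between -0.02 and -0.01. Mrps10, the counterpart of bacterial S10, had 235, 234, 266, 237 and 258 normalized counts in control hearts and 236, 219, 222, 237 and 236 in iSOD2 hearts. Only controls 3 and 6 stood above the highest iSOD2 mouse by more than 1 count. With the length trend removed the value of Mrps10 was -0.22 (adjusted p = 0.189).

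Levels were compared between members per kb of exon, as normalized counts divided by exon length and averaged over all 10 hearts. Mrpl42, a large-subunit protein of the mitochondrial lineage, was the highest at 5320 ± 343 per kb (SD, n = 10), followed by Mrpl30 (2354 ± 172), Mrpl12 (2086 ± 270) and Mrps21 (1805 ± 154). The lowest were Mrpl57 (134 ± 9.85), Mrpl19 (127 ± 7.26) and Mrpl17 (102 ± 7.50), and the ratio of highest to lowest was 52.3. The median was 546 per kb, and 54 of the 78 members lay within 2-fold of it. In this order 71 of 77 neighbouring pairs differed by no more than the larger of their SDs. The 6 steps that exceeded it were below Mrpl42, Mrpl12 and Mrps21 at the top and below Mrps25, Mrpl1 and Mrpl19 at the bottom. The low values of Mrpl17 and Mrpl19 were computed over 6707 and 4993 bp of annotated exon, so they depend on the transcript kept for each gene.

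**Figure D5:**
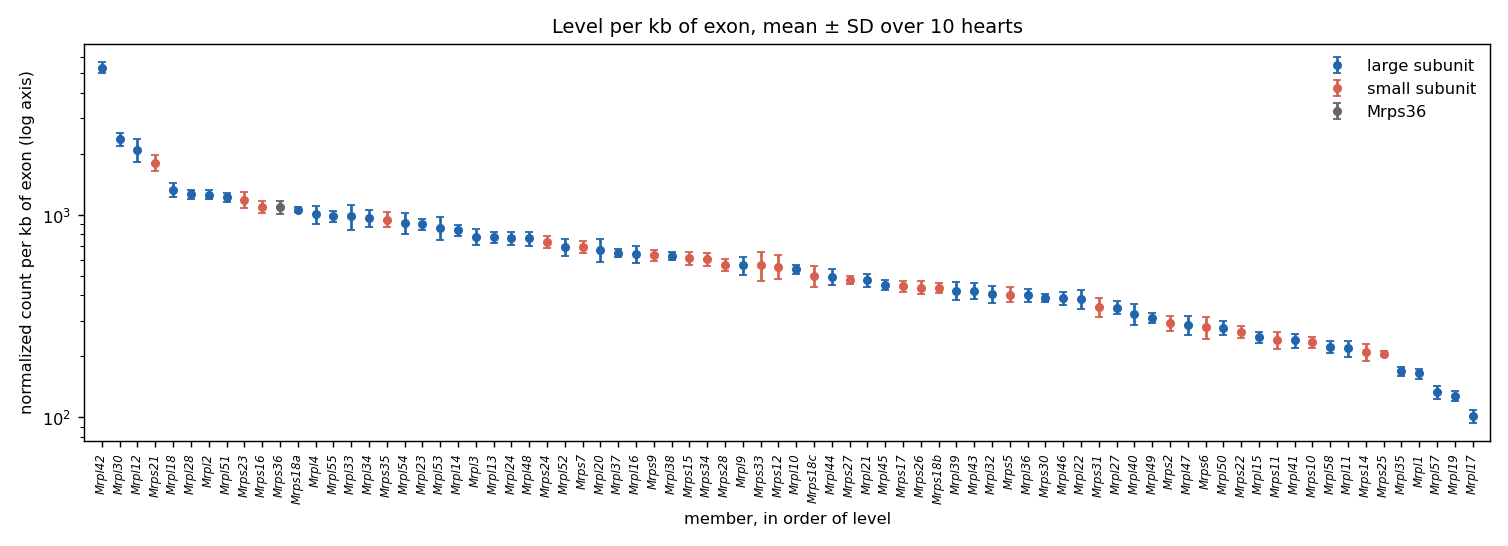
Normalized count per kb of exon (log axis) for each member, in order of level, as mean ± SD over the 10 hearts of both genotypes, coloured by subunit. Mrpl42 stands apart at 5320 per kb, and both subunits are spread over the rest of the order down to Mrpl17 at 102.

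Most members had positive values in each litter and each sex, where fewer mice were compared. In litter A (2 control and 2 iSOD2 mice) 67 members were positive with a median of 0.09, in litter B (3 and 3) 75 with a median of 0.15, in males (3 and 2) 68 with 0.11 and in females (2 and 3) 75 with 0.12. As differences in mean log2(normalized count + 1), 65 members were higher in iSOD2 in both litters and 66 in both sexes. Within litter A and within males 1 member was called (Mrpl12), against 121 and 151 of all genes. Within litter B and within females 0 were called, against 65 and 96 of all genes. An unadjusted p under 0.05 was reached by 5 members in litter A, 13 in litter B, 9 in males and 7 in females. No share over all genes was taken for these counts, so they are not read as a result. With sex as a covariate 2 of the 5 members remained called (Mrps33 and Mrpl54), with litter all 5, and with both 3 (Mrps33, Mrpl12 and Mrpl54), while 205, 326 and 222 of all genes were called.

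Litter and sex themselves were tested with genotype as covariate. Between litters, 0 members were called by DESeq2 or edgeR, against 3.50% of all genes called by DESeq2. An unadjusted p under 0.05 was reached by 2 members in DESeq2 and 4 in edgeR, against 2296 and 2849 of 17721 genes. The lowest adjusted p was that of Mrpl34 (log2 difference 0.17, higher in litter B, adjusted p = 0.161). Between the sexes, 0 members were called by either tool, against 0.483% of all genes called by DESeq2. An unadjusted p under 0.05 was reached by 3 members in DESeq2 and 5 in edgeR, against 1170 and 1500 of 17721 genes. Here Mrpl20, a large-subunit protein with a bacterial counterpart, was the nearest to the threshold (log2 difference 0.22, higher in females, adjusted p = 0.284). The interaction of genotype with sex was called for 0 members and 0 of 17725 genes by DESeq2 and by edgeR, with 1 member under an unadjusted p of 0.05 by each and 210 genes by DESeq2.

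Covariation was read after the genotype means were taken out. Over 3003 pairs of members the median Pearson correlation of log2 deviations across the 10 libraries was 0.18, with 66.8% of pairs positive. Pairs of a member with any other gene of mean at least 50 had a median of 0.008, and pairs with another gene of at most 1500 bp 0.08. These correlations rest on the same 10 libraries, whose depth and length slope all genes share, and are given as a description. Mrpl46 (median r with the other members 0.44) was the most and Mrpl55 (-0.20) the least like the rest.

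Many of these genes share a start region with another gene. A gene transcribed away from the member, with its start within 1000 bp, was present for 27 of 78 members (34.6%) against 13.4% of the 12151 genes averaging 50 or more. The 27 members had a median log2 fold change of 0.12 and their neighbours 0.04, 17 of the 27 neighbours were positive and 0 were called. Several neighbours, Mitd1 among them, had no adjusted p and so could not be called. Mrps12, the one called member with such a neighbour, starts 187 bp from Sars2, the mitochondrial seryl-tRNA synthetase, whose log2 fold change was 0.01 (adjusted p = 0.977). Mrpl18 and Tcp1, a cytosolic chaperonin subunit, start 238 bp apart and had 0.18 and 0.04, at exon lengths of 953 and 2485 bp. Other neighbours were higher, as Mrpl30 and Mitd1, 142 bp apart, had 0.17 and 0.30. Mrpl32 and Psma2, 205 bp apart, had 0.12 and 0.16 (adjusted p = 0.0658 for Psma2). Mrpl46 and Mrps11 are each other's neighbour at 42 bp, with 0.13 and 0.11.

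Shared exons limit some of these values, because the counting is not stated to use strand. In the GENCODE annotation 28 members overlap an exon of a gene on the opposite strand and 8 one on the same strand. The longest overlaps were those of Mrps25 with Nr2c2 (4590 bp), Mrpl19 with Gcfc2 (1962 bp) and Mrps34 with Mapk8ip3 (1309 bp), and counts of these members are uncertain. Mrps25 had 1226 ± 26.3 normalized counts in control hearts and 1276 ± 18.2 in iSOD2 hearts (SD, n = 5 per genotype, log2 fold change 0.06, adjusted p = 0.483). Of the called members, Mrpl12 overlaps a noncoding RNA on the opposite strand over 200 bp and Mrpl33 a processed transcript on the same strand over 261 bp, and neither was in the count table. Annotated pseudogenes exist for Mrps36 (3), Mrpl23 (1) and Mrpl48 (1).

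The members lie on 17 chromosomes. As the hairpin transgene sits in Col1a1 on chromosome 11, DNA around it can differ between genotypes. The 4 members within 10 Mb were Mrpl27 (log2 fold change 0.12, 0.282 Mb away), Mrpl10 (0.06), Mrpl45 (0.06) and Mrps23 (adjusted p = 0.0421), and none of them was called.

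Other genes of mitochondrial translation were read from the same test, with lists typed from general knowledge. The 78 members had a median exon length of 1046 bp and a median log2 fold change of 0.022 with the length trend removed. The same values are given for each list, because the lists differ from the members in exon length. Of the mitoribosomal proteins with symbols of their own 4 of 5 were positive, with a median of 0.18 and 0 called. Their median exon length was 1730 bp, and their median was 0.054 with the length trend removed. Dap3, the GTP-binding protein of the small subunit, had 1188, 1175, 1215, 1329 and 1171 normalized counts in control hearts and 1458, 1407, 1427, 1304 and 1339 in iSOD2 hearts (log2 fold change 0.19, adjusted p = 0.0204). Its exon length is 4613 bp, and with the length trend removed it was at 0.24 (adjusted p = 0.00814). Aurkaip1, another small-subunit protein, was at 0.21 (adjusted p = 0.0351) and at 0.09 after length adjustment (adjusted p = 0.715), and Chchd1 at 0.18 (adjusted p = 0.142).

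Factors that assemble or modify the ribosome had 17 of 28 positive values, a median of 0.07 and 0 calls. Their median exon length was 1752 bp, and their median was -0.005 with the length trend removed. The largest log2 fold changes were those of Malsu1, an assembly factor of the large subunit (0.27, adjusted p = 0.0879), Trmt61b, a methyltransferase for mitochondrial RNA (0.25, with too few counts for an adjusted p), and Gtpbp6, a GTPase of assembly and recycling (0.21, adjusted p = 0.390).

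Translation factors and activators had 8 of 15 positive and a median of 0.006. Their median exon length was 2241 bp, and their median was -0.001 with the length trend removed. Taco1, the activator of cytochrome c oxidase subunit I translation, was called lower, with 864, 898, 970.5, 774 and 769 normalized counts in control hearts and 676, 656, 612, 678 and 676 in iSOD2 hearts. The genotypes did not overlap, and Taco1 fell by 0.37 on the log2 scale (SE 0.08, adjusted p = 0.000270). With the length trend removed it fell by 0.49 (adjusted p = 2.27e-05), while edgeR gave an adjusted p of 0.0664. Mtfmt, which formylates the initiator tRNA, was at -0.19 with too few counts for an adjusted p, and Slirp, a partner of Lrpprc on mitochondrial mRNAs, at 0.17 (adjusted p = 0.263).

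Mitochondrial aminoacyl-tRNA synthetases and related enzymes had 12 of 20 positive, a median of 0.01 and 0 calls. Their median exon length was 2984.5 bp, and their median was 0.012 with the length trend removed. Lars2, the leucyl enzyme, had 734, 840, 727, 800 and 710 normalized counts in control hearts and 620, 533, 2728, 7641 and 714 in iSOD2 hearts, so its log2 fold change of 1.68 (SE 0.73, adjusted p = 0.154) came from iSOD2 8 and 9. Gatb was at 0.18 (adjusted p = 0.0895) and Yars2 at 0.17 (adjusted p = 0.239).

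Genes that transcribe mitochondrial DNA and process its RNA had 5 of 17 positive, a median of -0.03 and 0 calls, with the largest values in Ssbp1 (0.25, adjusted p = 0.117), Mterf1b (0.21, at 8.40 and 9.72 normalized counts) and Hsd17b10 (0.08, adjusted p = 0.413). Their median exon length was 2373 bp, and their median was -0.041 with the length trend removed. Among transcriptional regulators of nuclear mitochondrial genes 3 of 10 were positive, with a median of -0.02. Their median exon length was 3607.5 bp, and their median was -0.015 with the length trend removed. Pprc1, the PGC-1-related coactivator, was called lower, with 411, 456, 475, 346 and 437 normalized counts in control hearts and 301, 321, 316, 319 and 312 in iSOD2 hearts, which did not overlap. It fell by 0.44 on the log2 scale (SE 0.09, adjusted p = 0.000434) and by 0.37 with the length trend removed (adjusted p = 0.00308), with an adjusted p of 0.0664 in edgeR. Ppargc1b, a further coactivator, was at -0.30 (adjusted p = 0.0540), and Myc at 0.38 with too few counts for an adjusted p. Gabpa, the ETS protein of GABP, was at -0.07 (adjusted p = 0.424), Nrf1 at -0.06 (adjusted p = 0.701) and Yy1 at -0.01 (adjusted p = 0.968).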

How the data were processed

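RNA was extracted from the hearts of 5 control and 5 iSOD2 mice, and libraries were made from total RNA with the Illumina TruSeq Stranded Total RNA Gold kit. The authors aligned reads to mm10 with STAR and summed them over exons with HOMER, and deposited expected or estimated counts in steps of 0.5 that had not been normalized. The deposited table also gives another unit, the exon length in bp of the transcript kept for each gene. Each library is from 1 mouse. The strand setting of the counting is not given in the sources used here.

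Counts were rounded to whole numbers, and genes with under 10 counts over the 10 libraries were left out (17728 remained, with all 78 members). Genotypes were compared with DESeq2 1.42.0 in R 4.3.3 without a covariate and with the study's own filter and thresholds. The study used an older DESeq2, names no covariate, and reports fewer significant genes than the 281 called here. Adjusted p-values are Benjamini-Hochberg values over all genes kept by independent filtering, which were 9479 for genotype, 15654 for litter and 16348 for sex, and over 17725 for the interaction of genotype with sex. P-values called unadjusted and permutation p-values were not adjusted. For single levels, a two-sided exact permutation test enumerated all 252 arrangements of the mice. Litter and sex were tested with genotype as covariate. Alternatives were the quasi-likelihood test of edgeR 4.0.16, size factors from TMM or upper quartiles, other filters on counts, covariates, single litters and sexes, no fold threshold, omission of each mouse, and removal of each library's trend with exon length, or length and GC content, by a spline of 4 degrees of freedom used as normalization factor. All 45 pairs of libraries differed by more than sampling noise (chi-square over its degrees of freedom at least 5.71). Promoters came from RefSeq, exon overlaps from GENCODE.

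Depth was 16448090.5 to 24263085.5 counts per library. Members, lists and tests were chosen with earlier results of these data known. Named genes were members called, the 5 largest and 5 lowest log2 fold changes, the 3 highest and 3 lowest per kb, a panel of members with known roles, and of each companion list the called genes and up to 3 by size. Mrpl4, Mrpl16, Mrps23, Mrpl18, Mrpl20, Mrpl32, Mrpl34, Mrpl46, Mrps11, Mrpl55, Mrps21, Mrps25, Mrpl27, Mrpl1, Mrpl23, Mrpl48, Mrps34, Sars2, Tcp1, Mitd1, Psma2, Gabpa, Nrf1 and Yy1 were named after their values were seen, as were members without a promoter.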

Additional observations from a re-analysis of the deposited data

Results flagged for a closer look

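Values far from the rest of their genotype were looked for in the 25 named members and in 5 measures per mouse, in 60 groups of 5 mice, of which chance would mark about 1 in 20, or 3. In 2 of them a mouse stood apart. Control 4 had 638 normalized counts of Mrps33, while the other controls had 461 to 509. In this gene the call did not need that mouse, since the log2 fold change was 0.45 without it. iSOD2 9 had 882 normalized counts of Mrps36, while the other iSOD2 mice had 782 to 807.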

How the results depend on the processing

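The 5 member calls did not hold under every alternative. Counts of called members were 0 with edgeR, with the length trend removed, with length and GC trends removed, in litter B alone and in females alone, 1 in litter A alone and in males alone, 2 with sex as covariate, 3 with sex and litter, and 10 without a fold threshold. Without 1 mouse they ran from 1 (without control 2 or control 3) to 8 (without control 4). They were 2 without iSOD2 5 and 3 without control 1, control 6, iSOD2 7, iSOD2 8 or iSOD2 10. Scaling by TMM or upper quartiles and other count filters gave 5 or 6. The members' median log2 fold change was 0.022 with the length trend removed and 0.018 with length and GC, when 53 and 47 members were positive, and it ran from 0.12 to 0.15 with 70 to 75 positive members without 1 mouse. The cause of these changes was not tested. The counts of 0 members called for litter, for sex and for the interaction of genotype with sex stayed at 0 in the alternatives run. For companion genes, whose alternatives were chosen after seeing the data, calls went from 2 to 0 with edgeR, in litter B alone and in females alone, to 1 in litter A alone and in males alone, and ran from 2 to 3 without 1 mouse.

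Signs changed only among named genes that were not called. With the length trend removed the log2 fold changes were 0.069 for Mrpl17, -0.032 for Mrpl10, -0.093 for Mrps18a, -0.11 for Mrps22 and -0.052 for Hsd17b10, and with length and GC 0.054, -0.032, -0.085, -0.13 and -0.056, with -0.015 for Mrpl42 and -0.016 for Mrps30. In litter A alone Mrpl9 was at 0.014, Mrpl17 at 0.16, Mrpl57 at -0.0023, Mrps18a at -0.027 and Mrps22 at -0.072, and in litter B alone Mrps2 was at 0.017, Mrps18b at 0.092 and Mterf1b at -0.25. Males alone gave 0.0099 for Mrpl17, -0.040 for Mrpl19, -0.042 for Mrpl10 and -0.11 for Mrps22, and females alone 3.68e-05 for Mrpl9, 0.16 for Mrps2 and 0.012 for Mrps18b. Upper-quartile scaling gave 0.00041 for Mrpl9. Mrps22 was at -0.00091 with sex and -0.00024 with sex and litter as covariates. Without 1 mouse, values ran from -0.070 to 0.037 for Mrpl9, from -0.040 to 0.052 for Mrps2, from -0.061 to 0.033 for Mrpl17, from -0.046 to 0.0063 for Mrps18b, from -0.042 to 0.032 for Mrps22 and from -0.019 to 0.38 for Mterf1b. No paired analysis was possible because the genotypes share no replicate numbers, and the blocking that the labels do allow, by litter, gave the same 5 calls.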
